A study of Arabidopsis thaliana with 2 samples.

Results

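Enzymes that break down methionine, branched-chain amino acids, proline and lysine were followed in the wax-deficient Arabidopsis thaliana mutant cer6-2 and in its wild type, the accession Ler-0. The set was given as 10 loci. A feature annotated to a single gene was found for 9 of them, among 9236 genes with such a feature. The loci were chosen by function and by the cer6-2 over Ler-0 ratios of these same 2 arrays, several of which were known to be high, so the values below describe the set and were not tested. BCDH BETA1 (AT1G55510), which encodes the E1 beta part of the enzyme complex that decarboxylates branched-chain keto acids, had no named feature and has no value here.

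Each genotype was represented by 1 pool of RNA from the leaves and stems of 20 untreated plants, grown at 22 °C and 80% humidity in days of 16 h light and 8 h dark. The sample labels give an age of 15 days and the design text 2 weeks. The other genotype named in the series title, cer2, was not analysed here. Array 1 carried cer6-2 in Cy3 and Ler-0 in Cy5, and array 2 carried them with the dyes exchanged. All values are log2 ratios of cer6-2 over Ler-0, given per array or as a mean with the SD over both arrays after ± (n = 2 technical measurements of the same pools). That SD leaves out the variation between plants, and no replicate checks the difference between the genotypes. Which genotype is higher is likely but not settled, because the dyes are stated and the numerator of the ratio is not. If the ratio was Cy3 over Cy5, every "higher" below becomes "lower". The log10 base of the deposited values was inferred from their limits, and the fold sizes depend on it. In pooled tissue, fewer cells of a type and less RNA per cell cannot be told apart.

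Plants use amino acids as fuel and as a source of nitrogen when sugars run short, as in prolonged darkness and in ageing leaves. The carbon skeletons are oxidised mainly in mitochondria. Branched-chain amino acids lose their amino group, are decarboxylated by the multi-subunit branched-chain keto acid dehydrogenase and are then oxidised as coenzyme A esters. Leucine goes on through isovaleryl-CoA dehydrogenase and methylcrotonyl-CoA carboxylase. Electrons from isovaleryl-CoA dehydrogenase pass through an electron transfer flavoprotein and its ubiquinone oxidoreductase to the respiratory chain.

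Most of the enzymes stood higher in cer6-2. A gene counted as called when each array put it 2-fold or more to the same side of 0, a rule of size. Of the 9 measured enzymes, 7 were called higher and 0 lower, against 0.595% and 0.725% of all named genes. Nothing is read from that contrast, because the choice of the loci used it. Their median log2 ratio was 1.31, and the median of all 9236 genes was 0. The means ran from -0.74 for AT5G09300 to 2.16 for MGL, so the set was not uniform. Both arrays were above 0 for 8 enzymes and below 0 for 1. The count rests on array 1 being turned here to match the dyes of array 2. Had the authors already turned a column, which no source states, 0 of the 9 would be called.

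**Figure D1:**
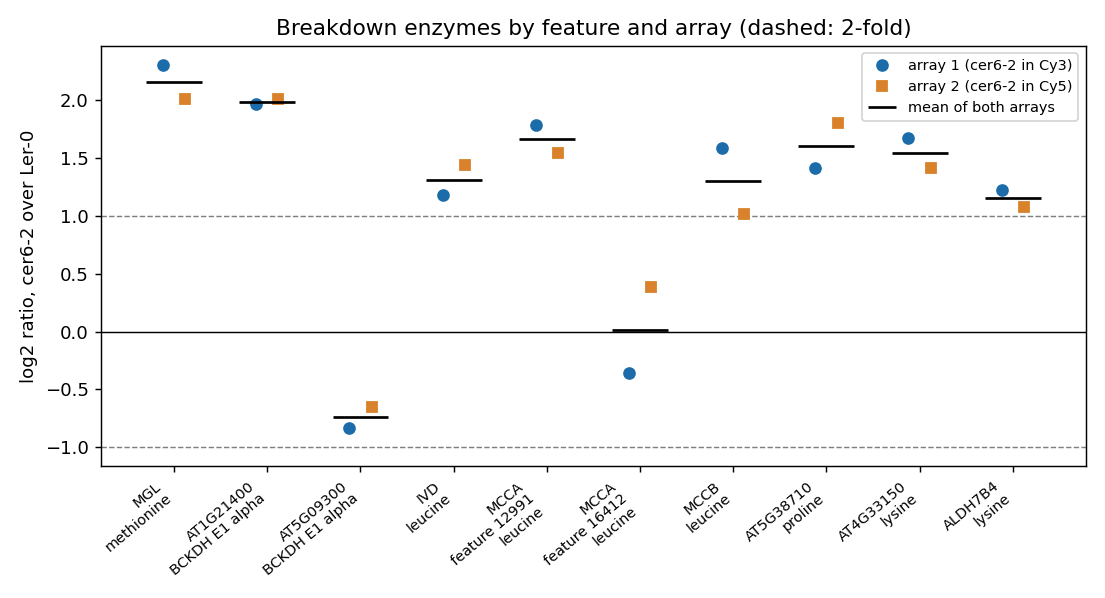
Log2 ratio of cer6-2 over Ler-0 for each feature of the breakdown enzymes, with array 1 as circles, array 2 as squares, the mean as a bar and dashed lines at 2-fold. Features of 8 genes lie above the upper dashed line in both arrays, AT5G09300 lies below 0 in both (-0.83 and -0.65), and feature 16412 of MCCA lies on both sides of 0.

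Methionine breakdown was represented by MGL, methionine gamma-lyase, which splits methionine into methanethiol, ammonia and a keto acid that can enter isoleucine synthesis. MGL stood at 2.30 in array 1 and 2.01 in array 2. Both arrays put it at least 4-fold higher in cer6-2. Its mean of 2.16 ± 0.21 is a 4.46-fold difference, and it ranked 6 of all named genes by the mean.

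The decarboxylation of branched-chain keto acids was represented by a pair of genes for the same subunit, E1 alpha, and they stood on opposite sides of 0. AT1G21400 stood at 1.97 in array 1 and 2.01 in array 2. Its mean was 1.99 ± 0.03, a 3.96-fold higher ratio, and its arrays were 0.04 apart. AT5G09300 stood at -0.83 in array 1 and -0.65 in array 2, both below 0 and neither as far as 2-fold. Its mean was -0.74 ± 0.13, a 1.67-fold lower ratio, and it was not called. The ratio of AT1G21400 exceeded that of AT5G09300 by 2.80 in array 1 and by 2.65 in array 2. This difference between ratios, 2.73 ± 0.10 on the log2 scale or 6.62-fold, compares changes, and says nothing of which gene has more transcript, because the arrays give ratios without levels. The 2 genes were chosen for the set with these values known, so no test is attached to the contrast. The other subunits of the complex, the second E1 beta gene (AT3G13450), the transferase E2 (AT3G06850) and the lipoamide dehydrogenases (AT1G48030 and AT3G17240), had no named feature.

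IVD, isovaleryl-CoA dehydrogenase, acts next on the leucine route. IVD stood at 1.18 in array 1 and 1.44 in array 2, above 2-fold in both. Its mean was 1.31 ± 0.18, a 2.48-fold higher ratio.

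Methylcrotonyl-CoA carboxylase, the biotin enzyme that follows, is built from an alpha subunit that carries the biotin, encoded by MCCA, and a beta subunit, encoded by MCCB. MCCB stood at 1.58 in array 1 and 1.02 in array 2. It was called higher, with its value in array 2 just inside the limit, and its mean was 1.30 ± 0.40. The arrays were 0.57 apart for MCCB, the widest gap among the 9 enzymes. With each array centred on the median of the named genes, MCCB stood at 0.99 in array 2 and was no longer called.

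MCCA was the only one of the 9 with several features, and its 2 features disagreed. Feature 12991 stood at 1.79 in array 1 and 1.55 in array 2, a mean of 1.67 ± 0.17 and a 3.18-fold higher ratio, larger than that of MCCB. Feature 16412 stood at -0.36 and 0.39, with a mean of 0.01 ± 0.52. Its deposited log10 values were 0.11 and 0.12 before turning, so on both arrays this feature leaned towards one dye, while the genotype under that dye was exchanged. The average of both features was 0.84 ± 0.18, with 0.72 in array 1 and 0.97 in array 2, and MCCA was therefore not called. By feature 12991 alone it would be called, which makes 8 enzymes. The features were 1.65 apart in their means. Among the 78 genes with several features only 1 showed a wider range, and the median range was 0.18.

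Proline breakdown was represented by AT5G38710, a mitochondrial proline dehydrogenase, which takes the first oxidation step. AT5G38710 stood at 1.41 in array 1 and 1.81 in array 2. Both arrays put it above 2-fold, and its mean was 1.61 ± 0.28, a 3.05-fold higher ratio. Its paralog AT3G30775 and the next enzyme of the route, the pyrroline-carboxylate dehydrogenase AT5G62530, had no named feature.

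Lysine breakdown was represented at its start and at a later oxidation. AT4G33150 encodes the bifunctional enzyme that joins lysine to ketoglutarate and then cleaves the product, saccharopine. It stood at 1.67 in array 1 and 1.41 in array 2, with a mean of 1.54 ± 0.18 and a 2.91-fold higher ratio. ALDH7B4 (AT1G54100) is the plant relative of human antiquitin, which in humans oxidises the aminoadipic semialdehyde of lysine breakdown. It stood at 1.22 and 1.08, with a mean of 1.15 ± 0.10. ALDH7B4 had the smallest mean of the 7 called enzymes, at 2.22-fold higher.

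In order of their means the enzymes ran MGL, AT1G21400, AT5G38710, AT4G33150, IVD, MCCB, ALDH7B4, MCCA and AT5G09300. Many neighbours in this order lie within their spread between arrays. IVD and MCCB had means of 1.31 and 1.30. The 2 values of AT5G38710 enclosed the mean of AT4G33150. AT5G09300 stood apart, with both arrays below every value of the other 8 genes.

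**Figure D2:**
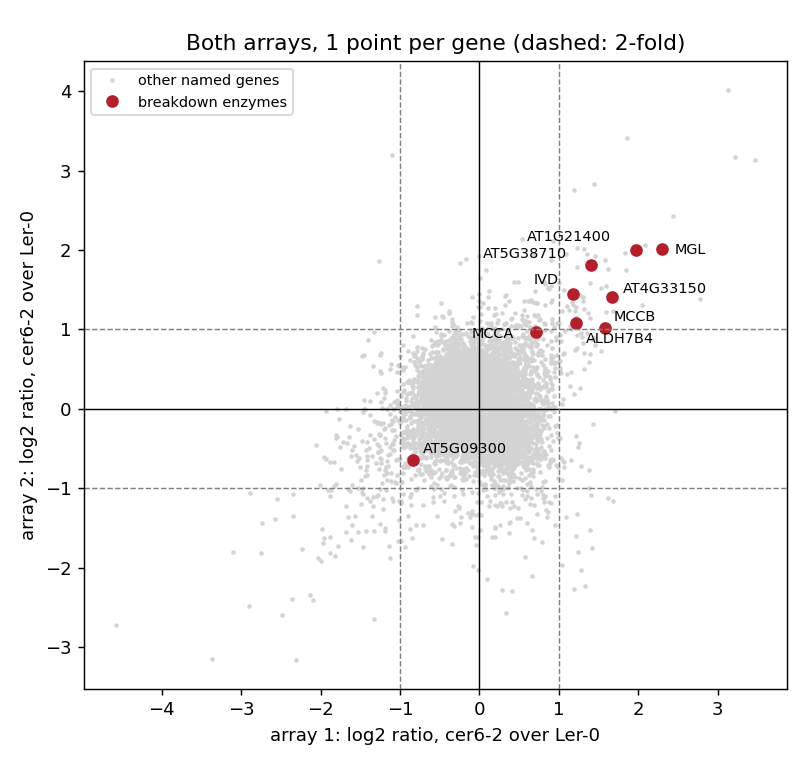
Log2 ratio of cer6-2 over Ler-0 in array 1 (horizontal) against array 2 (vertical), 1 point per named gene, with the 9 measured breakdown enzymes in red and dashed lines at 2-fold. The 7 called enzymes lie in the upper right corner beyond both lines, and AT5G09300 lies at the lower left. MCCA, plotted as the average of 2 features that disagree, lies short of both lines at 0.72 and 0.97.

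The enzymes had similar ratios in both arrays, which the choice of loci on these arrays favours. The gap between arrays ranged from 0.04 to 0.57 over the 9 enzymes, with a median of 0.25, against a median gap of 0.37 over all named genes. Array 1 gave the larger ratio for 4 of the enzymes and array 2 for 5. The part of the dyes in these ratios was not tested. Of all 9236 genes, 23.1% were above 0 in both arrays and 20.4% were below 0 in both. Among all 22575 features, 1475 stood at exactly 0 in array 1 and 1600 in array 2, and no feature of the enzymes did. Genes at exactly 0 in both arrays have no gap, and they are included in the median gap and shares of all genes. With a single array, 7 of the 9 reached 2-fold higher in array 1, against 1.23% of all named genes, and 7 in array 2, against 1.83%. By the mean of both arrays 7 of the 9 did, against 0.985%. At a stricter 3-fold in both arrays, MGL and AT1G21400 remained called, 2 of 9 against 0.119% of all named genes that were higher. At 1.5-fold in both arrays, 8 of 9 were called higher and AT5G09300 lower, against 1.8% and 1.91% of all named genes.

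Other genes of amino acid breakdown were taken from a list of 41 loci, of which 13 had a named feature. None of the 13 was called, against 0.595% of all named genes called higher and 0.725% lower. Of the 13, 8 were above 0 in both arrays and 5 had opposite signs in the arrays. The median of the 13 was 0.21. The other 28 loci have no value here, among them every listed gene of tyrosine, threonine and cysteine breakdown. The enzymes chosen with these ratios known had been left out of this list, so nothing is read from its contrast with them. At such shares few genes of a short list would be called, so the absence of calls is not read as a result. The same holds for the lists below without a call.

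The highest of these 13 was ETFQO, the ubiquinone oxidoreductase that takes electrons from isovaleryl-CoA dehydrogenase by way of the flavoprotein. ETFQO stood at 0.94 in array 1 and 1.04 in array 2. It missed the 2-fold limit in array 1 alone, and its mean was 0.99 ± 0.06. The flavoprotein itself stood nearer to 0, with ETFBETA at 0.16 and 0.32 and ETFALPHA at -0.02 and 0.14. D2HGDH, a hydroxyglutarate dehydrogenase that also passes electrons to the flavoprotein, had a mean of 0.15 ± 0.06.

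On the leucine route, the values differed from step to step. The aminotransferase AT1G50110, at the start, stood at 0.05 in array 1 and -0.69 in array 2, so the arrays gave it opposite signs. The enoyl-CoA hydratase AT4G16800, placed after the carboxylase, stood at 0.06 and 0.36. AT2G26800, the hydroxymethylglutaryl-CoA lyase that ends the route, stood at 0.48 and 0.54, with a mean of 0.51 ± 0.05. The other listed aminotransferases, BCAT-1 and BCAT-2, had no named feature, so 1 of 3 genes for that step was measured. The genes called on this route encode the dehydrogenase subunit AT1G21400, IVD and MCCB. They belong to the set chosen with these ratios known, so nothing is read from their place in the route. On the valine branch, ALDH6B2, the methylmalonate semialdehyde dehydrogenase, stood at 0.61 and 0.98, a mean of 0.80 ± 0.27. AT4G20930, the hydroxyisobutyrate dehydrogenase before it, stood at 0.23 and 0.48.

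**Figure D3:**
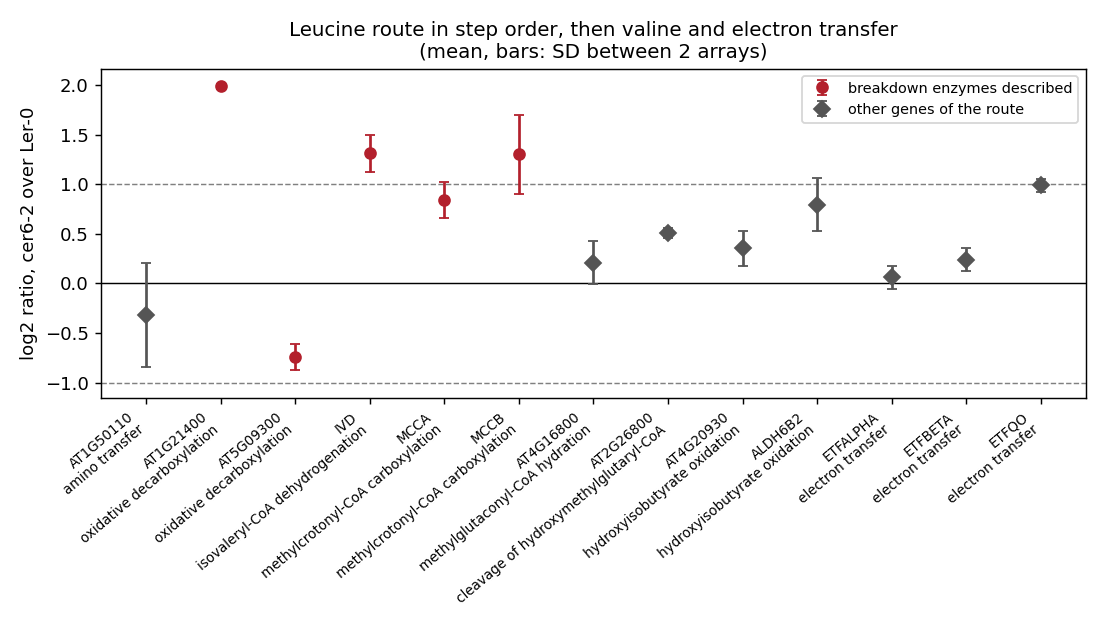
Mean ratio (vertical, log2, cer6-2 over Ler-0) for the measured genes of the leucine route in the order of their steps, followed by the valine branch and electron transfer, with bars for the SD between the 2 arrays. AT1G21400, IVD and MCCB lie above the 2-fold line at 1.99, 1.31 and 1.30, ETFQO lies on it at 0.99, and AT5G09300 and the aminotransferase AT1G50110 lie below 0.

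Of the remaining measured genes of the list, only the ornithine aminotransferase DELTA-OAT was above 0 in both arrays. It stood at 0.17 in array 1 and 0.46 in array 2, with a mean of 0.31 ± 0.20. The asparaginases ASPGA1 and ASPGB1 stood at 0.02 ± 0.07 and -0.08 ± 0.38. The urease gene URE was the lowest of the 13, at 0.06 in array 1 and -0.80 in array 2.

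Genes that make the same amino acids were thinly covered, with 3 of 19 listed loci measured and none called. All 3 belong to branched-chain synthesis. The dihydroxyacid dehydratase AT3G23940 stood at -0.21 ± 0.07, the ketol-acid reductoisomerase AT3G58610 at -0.09 ± 0.31 and the aminotransferase ATBCAT-5 at -0.08 ± 0.27. Their median was -0.09, with -0.16 in array 1 and -0.26 in array 2, and only AT3G23940 had the same sign in both arrays. No listed gene of proline, lysine or methionine synthesis had a named feature.

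ALDH7B4 belongs to the aldehyde dehydrogenase family, and 6 of 13 other listed family members were measured. None of the 6 was called, against 0.595% of all named genes called higher and 0.725% lower. The median of the 6 was 0.21, with 0.47 in array 1 and 0.14 in array 2. The highest were ALDH6B2 of the valine branch and ALDH11A3, a glyceraldehyde phosphate dehydrogenase, at 0.80 ± 0.27 and 0.75 ± 0.12. The lowest were ALDH3F1 at -0.23 ± 0.18 and ALDH22A1 at -0.12 ± 0.24.

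Of 7 listed genes known to respond to darkness or sugar shortage, 3 were measured and 1 was called higher, against 0.595% of all named genes. These 3 had been seen to be above 0 before the list was written, so nothing is read from the count or the median. The part of these genes in the enzymes' ratios was not tested. ATL8, a RING-type ubiquitin ligase, was called higher at 1.23 and 2.02. AKINBETA1, a beta subunit of the energy-sensing kinase SnRK1, stood at 0.92 and 1.36, and AT3G15450 at 0.75 and 1.12. All 3 were above 0 in both arrays. The bZIP transcription factors of the groups known to act with SnRK1 gave 2 measured genes of 6, BZIP53 at 0.08 ± 0.29 and bZIP44 at 0.36 ± 0.27, and neither was called.

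**Figure D4:**
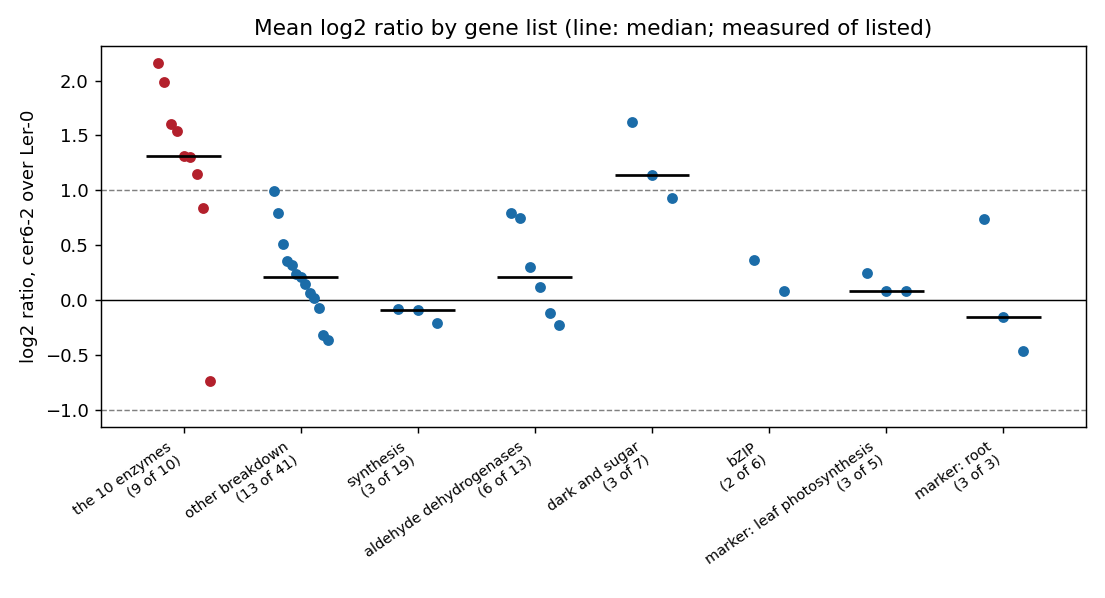
Mean ratio (vertical, log2, cer6-2 over Ler-0) by gene list, 1 point per measured gene, with a line at the median where at least 3 genes were measured and the number measured of those listed under each name. The breakdown enzymes described have a median of 1.31, the other breakdown genes 0.21, the synthesis genes -0.09 and the dark and sugar genes 1.14.

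The tissue could be checked only through ratios, which do not show whether a marker is expressed. The 3 measured of 5 photosynthesis genes had a median of 0.08, from RCA, Rubisco activase, and LHCB4.1, an antenna protein, both at 0.08, to LHCB4.2 at 0.25 ± 0.66, which stood at 0.71 in array 1 and -0.22 in array 2. Of the 3 root markers, PYK10 was above 0 in both arrays and the other two had opposite signs in them. The means were PYK10 at 0.73 ± 0.08, EXPA18 at -0.15 ± 0.30 and EXPA7 at -0.46 ± 1.02, and none was called. Markers of leaf senescence (0 of 6) and of flowers (0 of 4) had no named feature, so the age of the leaves and the flowering state of the pools could not be compared. The part of tissue makeup in the enzymes' ratios was not tested.

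The genes next to the enzymes on the chromosomes were also read. Within 2 protein-coding genes on either side, 13 neighbours were measured, 0 of them called, with a median of -0.05. The highest was SKP2A, beside AT1G21400, at 0.51 ± 0.26. The lowest was AT5G09290, beside AT5G09300, at -2.06 in array 1 and -0.46 in array 2, a mean of -1.26 that lies farther from 0 than that of AT5G09300.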

How the data were processed

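RNA of cer6-2 and Ler-0 was compared on 2 two-colour Agilent Arabidopsis 2 arrays, labelled with a direct labelling kit, per the labels. The deposited values, made by the authors, were read as log10 ratios of the channels. They stop at 2 in size (100-fold, the usual limit of the scanner maker's software), and each column has a median of 0. The log base, numerator, background correction, dye normalization and any filter: not given in the sources used here.

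Ratios were read as Cy5 over Cy3, array 1 was multiplied by -1, and log10 was changed to log2. Gene names come from the platform's annotation, updated by gene identifier with a TAIR10.1 table. Of 22575 features, 13200 were unnamed, 40 had several genes, 18 were unmatched and 9317 gave 9236 genes. Features of a gene were averaged. No coordinates are given, because no build is named for the arrays. Python 3.11.15, pandas 2.3.3 and numpy 2.4.6 were used, and the calling code was tested on simulated data.

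A gene was called when each array put it 2-fold or more to the same side of 0, a rule of size. Both arrays were counted as 1 biological replicate, so there is no test. The members and lists were chosen with earlier results of these data known. Every enzyme described is named. From each other list the called genes and the highest 2 and lowest 2 are named, with further genes that complete a pathway. The alternatives were each array alone, centring, thresholds of 1.5-fold and 3-fold, calling by the mean, columns read as turned before deposit, a log2 reading, and leaving out features over 2-fold apart between arrays.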

Additional observations from a re-analysis of the deposited data

How the results depend on the processing

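The count of 7 enzymes called higher was 7 with either array alone, 7 by the mean of both arrays, 7 without features over 2-fold apart between arrays and 6 after centring, which dropped MCCB. It was 2 at 3-fold, 0 when the columns were read as turned before deposit and 0 when the values were read as log2. The median of all 9 measured enzymes was 1.41 in each array alone (1.410 and 1.414) and 1.30 after centring, against 1.31. The count of other breakdown genes called ran from 0 to 1 by array, the 1 being ETFQO in array 2, and it was 2 at 1.5-fold. Their median ran from 0.17 to 0.32 by array. No synthesis gene was called under any of the 9 alternatives. MCCA stood at 1.67 or 0.01 by its single features, a setting chosen after seeing the data. After centring, the ratio of each of the 9 enzymes stayed within its SD between arrays, and with either array alone none changed sign. Thresholds, the log base and the features chosen set these differences by construction. No paired analysis was possible because there is 1 pool per genotype, measured on each array. Signal over background is unknown here, so a ratio near 0 can belong to a weak transcript.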

Other observations

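Lists for nitrogen remobilisation, autophagy, fatty acid beta-oxidation and amino acid transport were written after the values of the enzymes had been seen. PPDK, pyruvate orthophosphate dikinase, known to act in nitrogen remobilisation from ageing leaves, was the only measured gene of 8 in the first list and was called higher, at 1.32 in array 1 and 1.26 in array 2. Its mean was 1.29 ± 0.04, a 2.44-fold higher ratio, close in size to those of IVD and MCCB. Of all named genes, 0.595% were called higher.

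The ATG8 family, whose proteins coat autophagosomes, gave 9 of the 12 listed autophagy genes. None was called, 3 were above 0 in both arrays, 1 was below 0 in both and 5 had opposite signs. The median was -0.13 in array 1 and 0.65 in array 2, so either array alone decides the direction. The highest means were those of ATG8E, at -0.02 in array 1 and 1.29 in array 2, and ATG8B, at 0.07 and 0.80. The lowest were those of ATG8D, at -0.58 and -0.06, and ATG8C, at -0.35 and 0.58. Of 13 listed genes of fatty acid beta-oxidation only AIM1, a multifunctional protein, was measured, at -0.10 ± 0.48. None of the 11 listed amino acid transporters had a named feature.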
